A study of Mus musculus with 8 samples.

Results

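Chemoattractant receptors of bone marrow-derived macrophages were examined as a group of 9 genes, chosen by receptor class and mouse symbol: the formyl peptide receptors Fpr1 and Fpr2, the anaphylatoxin receptors C5ar1 and C3ar1, the chemokine receptors Ccr1, Ccr2, Cx3cr1 and Cxcr4, and the leukotriene B4 receptor Ltb4r1. All 9 were found among the 55401 genes of the count table, and all 9 were among the 17470 genes that passed the filter on low counts, Ltb4r1 only through the stimulated libraries. The class was chosen with earlier results of these data known, so the tests below describe the genes and are not independent support.

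The macrophages came from Mettl3fl/fl mice (WT) or from Lyz2-Cre-Mettl3fl/fl mice (KO), in which the myeloid Lyz2 promoter drives Cre. The enzyme Mettl3 places N6-methyladenosine on mRNA. All cells carried the floxed Mettl3 alleles, and only KO cells carried Cre, so that effects of Cre and of the deletion cannot be told apart. Cells of each genotype received PBS, or LPS at 50 ng/ml overnight followed by nigericin at 10 µM for 3 h per the sample labels, while the series text names 1 h or 3 h. LPS is a bacterial ligand of Toll-like receptor 4, and nigericin lets potassium leave the cell, which triggers the NLRP3 inflammasome. The 4 groups had 2 libraries each. The labels do not say that these are separate cultures or animals, and the spread behind the p-values may be technical. No group received LPS or nigericin alone, and their effects cannot be told apart.

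Chemoattractant receptors are G protein-coupled receptors of the cell membrane. Binding of a ligand activates Gi proteins, whose subunits drive phospholipase C, phosphoinositide 3-kinase and Rac, and the cell moves up the ligand gradient. G protein-coupled receptor kinases and arrestins then desensitise and internalise the receptor. Macrophages use such receptors to reach sites of infection, where bacteria shed formyl peptides, complement is cleaved and tissue cells release chemokines.

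The libraries held 55032057 to 65487739 counts. Mettl3 was measured at 13.6 and 13.3 CPM (counts relative to the composition-scaled library size) in WT and at 5.63 and 6.33 in KO cells with PBS, and at 28.2 and 23.4 against 9.08 and 7.87 after stimulation. It was lower in KO cells in both conditions, by a log2 fold change of -1.17 (edgeR quasi-likelihood test, Benjamini-Hochberg adjusted p = 0.0144) and of -1.61 (adjusted p = 0.00283). The summed level of 8 macrophage markers was 42180 to 48290 CPM in WT and 26660 to 28050 CPM in KO libraries. That list includes Lyz2, the locus that carries Cre. Without Lyz2, the other 7 markers summed to 9437 to 9788 CPM in WT and 9881 to 10190 CPM in KO cells with PBS, and to 13390 to 13860 and 12130 to 12650 CPM after stimulation. Of 10 neutrophil markers, Ly6g and Retnlg were at 0 in every library and the sum was 28.5 to 37.7 CPM over all groups. Within that sum, markers moved in opposite directions. S100a8 was at 2.58 to 4.25 CPM with PBS and 26.3 to 32.1 CPM after stimulation. Mmp8 was at 22.8 to 28.9 CPM with PBS and 2.04 to 2.87 CPM after stimulation.

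Fpr1 lies on chromosome 17 at 17876471 to 17883940 on the minus strand and Fpr2 at 17887824 to 17893952 on the plus strand (GRCm38, GENCODE M21). The genes are divergent, with 3883 bases between them. C3ar1 lies on chromosome 6 at 122847138 to 122856161 on the minus strand. C5ar1 lies on chromosome 7 at 16246743 to 16259540, Ccr1 on chromosome 9 at 123962124 to 123968692, Cx3cr1 on chromosome 9 at 119901616 to 120069879 and Cxcr4 on chromosome 1 at 128588199 to 128592293, all on the minus strand. Ccr2 lies on chromosome 9 at 124101950 to 124113557 and Ltb4r1 on chromosome 14 at 55765962 to 55768494, both on the plus strand. The promoters of Fpr1, Fpr2 and C3ar1 are shown because these are the members whose response to stimulation differed between genotypes. Each runs 5′ to 3′ along the gene's own strand, from 250 bases before to 50 bases after the RefSeq start (GRCm38.p6), and capitals mark motif matches.
Fpr1, chr17:17883890-17884189, minus strand: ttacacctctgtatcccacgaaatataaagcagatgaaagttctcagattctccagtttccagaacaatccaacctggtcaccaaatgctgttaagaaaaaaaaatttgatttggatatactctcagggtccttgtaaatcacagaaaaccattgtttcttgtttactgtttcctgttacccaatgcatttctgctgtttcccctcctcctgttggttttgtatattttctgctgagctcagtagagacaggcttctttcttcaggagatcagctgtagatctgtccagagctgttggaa
Fpr2, chr17:17887574-17887873, plus strand: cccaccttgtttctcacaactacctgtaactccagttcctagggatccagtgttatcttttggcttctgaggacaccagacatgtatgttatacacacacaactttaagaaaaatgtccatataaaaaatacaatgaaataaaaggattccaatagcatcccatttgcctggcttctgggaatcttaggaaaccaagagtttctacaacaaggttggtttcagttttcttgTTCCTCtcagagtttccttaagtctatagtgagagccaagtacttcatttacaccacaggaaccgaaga
C3ar1, chr6:122856108-122856407, minus strand: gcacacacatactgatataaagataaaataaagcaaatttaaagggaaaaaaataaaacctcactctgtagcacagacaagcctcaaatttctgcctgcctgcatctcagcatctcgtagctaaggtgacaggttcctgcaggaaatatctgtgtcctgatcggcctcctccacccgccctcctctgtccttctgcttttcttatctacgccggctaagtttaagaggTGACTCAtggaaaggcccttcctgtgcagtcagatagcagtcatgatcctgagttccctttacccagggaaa

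All 9 members matched a RefSeq promoter, and 5 motifs were searched on both strands. The NF-kB motif GGGANTTTC was in none of the 9 windows and in 1.11% of all 32851 promoters of this length. The PU.1 motif GAGGAA was in the windows of Fpr2, Ccr1 and Ltb4r1 and in 28.3% of all promoters. The match in Fpr2 is on the opposite strand and starts at -19. The AP-1 motif TGANTCA was in the C3ar1 window alone among the members, at -22, and in 7.81% of all promoters. The interferon response core GAAANNGAA was in the windows of C5ar1 and Ccr2 and in 8.56% of all promoters, and the C/EBP motif TTGCNNCAA was in no member and in 2.08% of all promoters. These matches describe letters in the windows and no binding was measured.

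Fpr1 and Fpr2, which detect bacterial and mitochondrial formyl peptides and, for Fpr2, also serum amyloid A and annexin A1, went from about 1 CPM in WT cells to the highest levels of the class per kilobase of exon on stimulation. Fpr1 was measured at 1.17 and 0.782 CPM (76 and 52 counts) in WT cells with PBS and at 582 and 623 CPM after stimulation. In KO cells it was at 4.07 and 4.90 CPM (239 and 306 counts) with PBS and at 618 and 602 CPM after stimulation. Both KO libraries with PBS were above both WT libraries, whereas the stimulated libraries of the genotypes overlapped.

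Fpr1 rose with stimulation by a log2 fold change of 9.27 ± 0.21 (SE, n = 2 per group, adjusted p = 5.37e-07, 618-fold) in WT and of 7.09 ± 0.19 (adjusted p = 9.77e-07, 136-fold) in KO cells. In these contrasts, 20.6% of all tested genes were called higher and 20% lower in WT, and 20.2% and 19% in KO cells. Of the 9 members, 2 were called higher and 5 lower in WT, and 2 higher and 3 lower in KO cells. The median log2 change over the 8 members with a fold was -0.64 in WT and -0.04 in KO cells, against -0.01 and -0.03 over all genes. With PBS, Fpr1 was 4.60-fold higher in KO cells (log2 2.20 ± 0.18, adjusted p = 0.0034), against 1.2% of tested genes called higher and 0.355% called lower in that contrast. After stimulation the KO to WT difference was 0.02 on the log2 scale, with a 95% interval of -0.32 to 0.35.

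Fpr2 was measured at 0.737 and 1.20 CPM (48 and 80 counts) in WT and at 4.07 and 3.46 CPM (239 and 216 counts) in KO cells with PBS. After stimulation it was at 559 and 627 CPM in WT and at 624 and 620 CPM in KO cells. As for Fpr1, the genotypes were apart with PBS and overlapped after stimulation. Fpr2 rose by 9.25 ± 0.24 on the log2 scale in WT (adjusted p = 7.63e-07, 609-fold) and by 7.37 ± 0.22 in KO cells (adjusted p = 1.39e-06, 165-fold). It was 3.87-fold higher in KO cells with PBS (log2 1.95 ± 0.20, adjusted p = 0.00979), and the difference after stimulation was 0.07 with an interval of -0.31 to 0.45.

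The response to stimulation was smaller in KO cells, with a KO minus WT difference on the log2 scale of -2.18 ± 0.23 for Fpr1 (adjusted p = 0.0161) and of -1.88 ± 0.26 for Fpr2 (adjusted p = 0.044). Of all tested genes, 0.103% were called with a larger and 0.395% with a smaller response in KO cells, and 0 and 3 of the 9 members. The PBS libraries enter the response of each gene and its genotype difference alike, so these are not separate findings. The PBS calls of both genes held in all 8 fits that left out 1 library, with adjusted p up to 0.0222 for Fpr1 and 0.0488 for Fpr2, but not when the PBS groups were fitted alone (adjusted p = 0.0741 and 0.099). The response difference held in 4 of those 8 fits for Fpr1 and in 1 of 8 for Fpr2, where the adjusted p ranged from 0.0207 to 0.17. The Fpr2 difference also did not pass with the replicate block (adjusted p = 0.0791) or under limma-voom (adjusted p = 0.0796).

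Markers of other cells also differed between the groups, and not all of them moved with the formyl peptide receptors. The summed level of 6 monocyte markers was 56.8 to 63.4 CPM in WT and 78.4 to 80.4 CPM in KO cells with PBS, and 868 to 901 and 1132 to 1421 CPM after stimulation, where Hp was the most abundant. In the list of monocyte markers, 5 of 6 were called higher in each stimulation contrast. With PBS, only Hp of the 6 was called higher in KO cells, at 9.35 and 10.7 CPM in WT and 27.7 and 26.9 CPM in KO libraries, while Nr4a1 was at 43.3 and 49.3 against 44.7 and 46.5 CPM. In the same contrast 2 of 5 fibroblast markers were called higher, and their sum was 163 to 183 CPM in WT and 254 to 271 CPM in KO cells. After stimulation that sum was lower in WT, at 114 to 116 CPM, and was 292 to 328 CPM in KO cells. Siglecf, an eosinophil marker, was at 6.52 and 6.53 CPM in WT and 18.4 and 20.3 CPM in KO cells with PBS. It was called higher in KO cells there (adjusted p = 0.00605). After stimulation Siglecf was lower, at 1.6 and 1.36 CPM in WT and 2.7 and 2.25 CPM in KO cells. Of the same list, the eosinophil genes Epx and Prg2 were at 0 to 0.0681 CPM in the PBS libraries. The part of other cells in the receptor values was not tested. In bulk RNA more cells of a type and more RNA per cell cannot be told apart.

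Because reads of near copies can be counted for either gene, shared transcript sequence was measured. Fpr1 has 1 of its 1275 words of 50 bases in common with Fpr2 (0.0784%). Fpr2 shares 82 of 1295 such words with Fpr3, its neighbour, and 48 exonic bases of the annotation on the same strand. Fpr3 had 0 counts in all 4 PBS libraries, 79 and 98 in stimulated WT and 184 and 89 in stimulated KO cells. It passed the filter on low counts only through the stimulated libraries, so its test is not given, and the other listed Fpr genes had 0 counts in every library apart from 6 of Fpr-rs5 in 1 stimulated KO library.

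**Figure D1:**
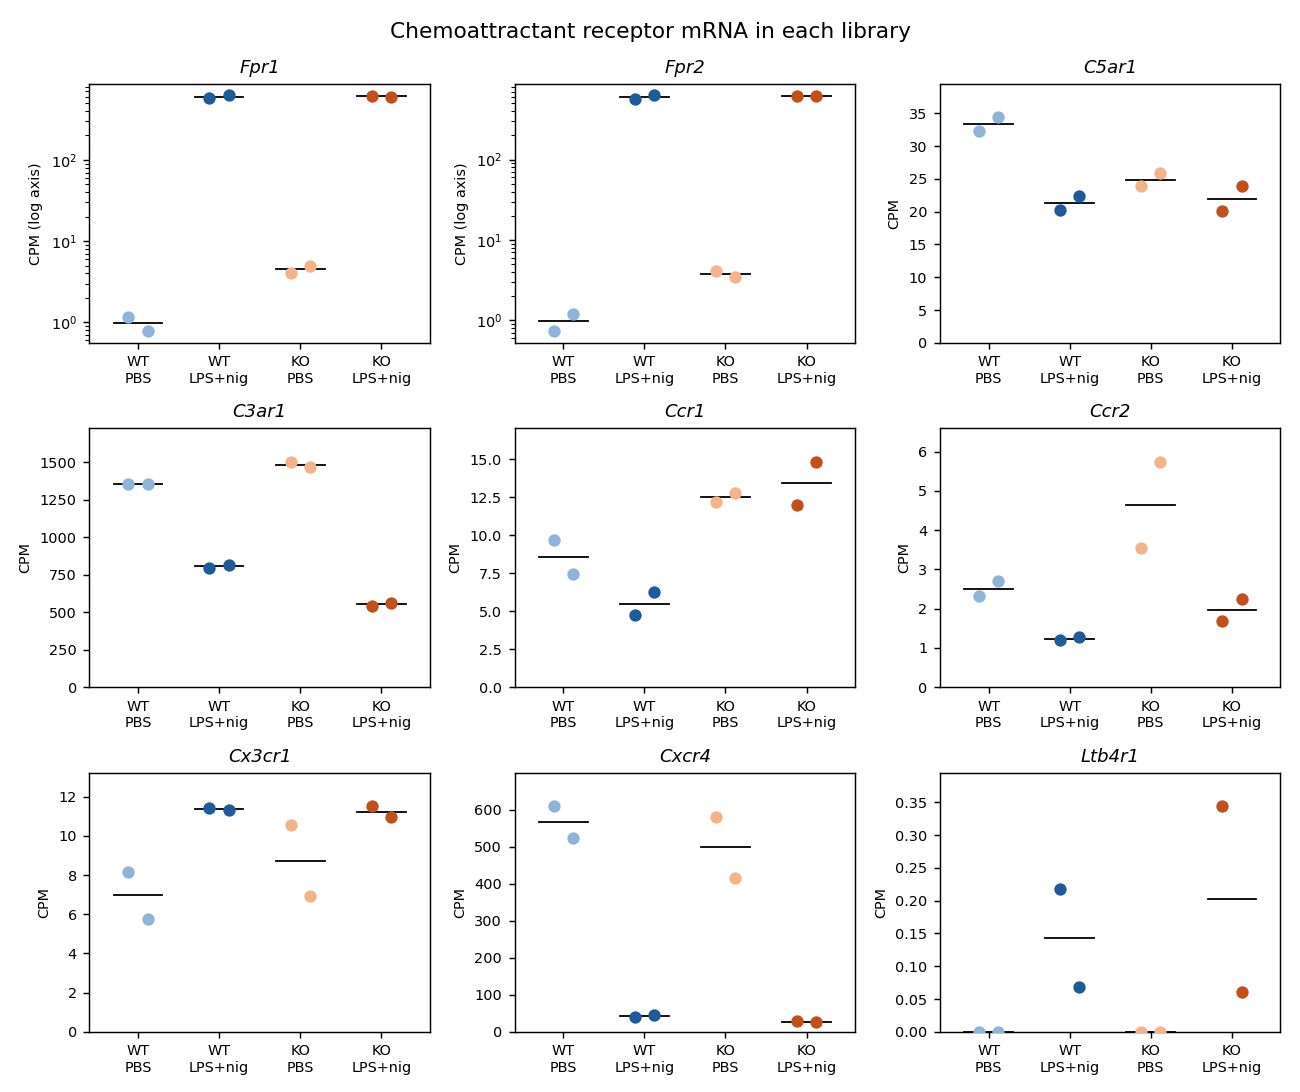
Level of each receptor (CPM) in each of the 8 libraries by group. Points are single libraries, short lines are group means, the axes of Fpr1 and Fpr2 are logarithmic and the others are linear from 0. Fpr1 and Fpr2 lie near 1 CPM in WT cells with PBS, at 3.46 to 4.90 CPM in KO cells with PBS and at 559 to 627 CPM after stimulation, while Cxcr4 and C3ar1 are lower after stimulation.

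C3ar1 and C5ar1 bind the complement cleavage products C3a and C5a. C3ar1 was at 1352 and 1353 CPM in WT and 1501 and 1466 CPM in KO cells with PBS, and at 796 and 815 CPM in WT and 544 and 562 CPM in KO cells after stimulation. The groups did not overlap, and KO cells were the higher with PBS and the lower after stimulation. C3ar1 fell by 0.75 on the log2 scale in WT (SE 0.05, adjusted p = 5.33e-05) and by 1.42 in KO cells (adjusted p = 3.65e-06), a difference of -0.68 ± 0.07 (adjusted p = 0.0205). Its PBS difference of 0.13 ± 0.05 did not pass (adjusted p = 0.298).

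After stimulation C3ar1 was lower in KO cells by a log2 fold change of -0.54 ± 0.05 (adjusted p = 0.00414), where 2.91% of tested genes were called higher and 2.01% lower, and 1 member each way. That call was at an adjusted p of 0.0501 without the first stimulated KO library. The difference of the responses held in 2 of 8 fits that left out 1 library, with adjusted p from 0.0263 to 0.118.

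C5ar1 was measured at 32.3 and 34.4 CPM in WT and 23.9 and 25.8 CPM in KO cells with PBS, and at 20.3 and 22.4 against 20.1 and 24.0 CPM after stimulation. The WT libraries with PBS were above the other 6. C5ar1 fell in WT by 0.64 on the log2 scale (SE 0.12, adjusted p = 0.0044). In KO cells its log2 fold change was -0.18, with an interval of -0.45 to 0.10 (adjusted p = 0.278), and the responses differed by 0.47 ± 0.16 (adjusted p = 0.355). The lower PBS level in KO cells, -0.42 ± 0.12, did not pass (adjusted p = 0.156), but did under DESeq2 (adjusted p = 0.0496).

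Cxcr4 binds CXCL12 and holds myeloid cells in the bone marrow. It was at 609 and 523 CPM in WT and 580 and 415 CPM in KO cells with PBS, and at 40.9 and 44.7 against 28.2 and 26.7 CPM after stimulation. Every stimulated library was below every PBS library. Cxcr4 fell by 3.72 on the log2 scale in WT (SE 0.18, adjusted p = 8.98e-06, 13.2-fold), and its change in KO cells was -4.18 (adjusted p = 6.15e-06, 18.1-fold). The KO to WT difference after stimulation was -0.64 ± 0.16 (adjusted p = 0.0773), and it passed under DESeq2 (adjusted p = 0.00467) and with the stimulated groups alone (adjusted p = 0.0462).

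Ccr1 and Ccr2 lie on chromosome 9, with 133257 bases between them, and bind inflammatory CC chemokines such as CCL3 and CCL5 for Ccr1 and CCL2 for Ccr2. Ccr1 was at 9.71 and 7.48 CPM in WT and 12.2 and 12.8 CPM in KO cells with PBS, and at 4.78 and 6.25 against 12.01 and 14.8 CPM after stimulation. In WT the stimulated libraries were the lower, and in KO cells the conditions overlapped. After stimulation Ccr1 was 2.43-fold higher in KO than in WT cells (log2 1.28 ± 0.20, adjusted p = 0.0183). The call was lost without the first stimulated WT library (adjusted p = 0.0758), the first stimulated KO library (0.0624) or the second (0.0955).

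Ccr1 fell in WT by 0.64 on the log2 scale (SE 0.20, adjusted p = 0.0386), a call lost with only the WT groups fitted (adjusted p = 0.0733), with the replicate block (0.0522) and in 4 of the fits that left out 1 library (0.0623 to 0.2). In KO cells its log2 fold change was 0.10, with an interval of -0.36 to 0.56 (adjusted p = 0.719). The difference of the responses, 0.74 ± 0.28, did not pass (adjusted p = 0.39). Thus a WT fall was called and a KO one was not, but the responses were not shown to differ.

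Ccr2 was at 2.33 and 2.69 CPM in WT and 3.54 and 5.73 CPM in KO cells with PBS, and at 1.20 and 1.27 against 1.68 and 2.24 CPM after stimulation. The stimulated libraries of each genotype were below its PBS libraries. Ccr2 fell by 1.02 in WT (SE 0.29, adjusted p = 0.0283) and by 1.24 in KO cells (adjusted p = 0.0124). The WT call was lost under limma-voom (adjusted p = 0.0656) and without any 1 of the 4 WT libraries (0.0631 to 0.11), and the KO call without the second PBS or the first stimulated KO library (0.0685 and 0.079).

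Cx3cr1, the fractalkine receptor, was at 8.18 and 5.78 CPM in WT and 10.5 and 6.92 CPM in KO cells with PBS, and at 11.4 and 11.3 against 11.5 and 10.97 CPM after stimulation. Stimulated libraries were the higher within each genotype. The log2 fold changes of 0.70 ± 0.24 in WT (adjusted p = 0.0521) and 0.37 ± 0.24 in KO cells (adjusted p = 0.268) did not pass. The WT value passed in several alternatives, with an adjusted p of 0.0245 under DESeq2 and of 0.0272 with the replicate block.

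Ltb4r1, which binds leukotriene B4, had 0 counts in all 4 PBS libraries, 12 and 4 in stimulated WT and 19 and 4 in stimulated KO cells. A count of 3, the limit that a count of 0 allows, corresponds to 0.0451 to 0.0546 CPM per library. Ltb4r1 is not among the members counted as called. It passed the filter on low counts only through the stimulated libraries, so its tests with stimulation are not given. Its KO to WT difference after stimulation had an interval of -3.042 to 4.005 on the log2 scale.

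**Figure D2:**
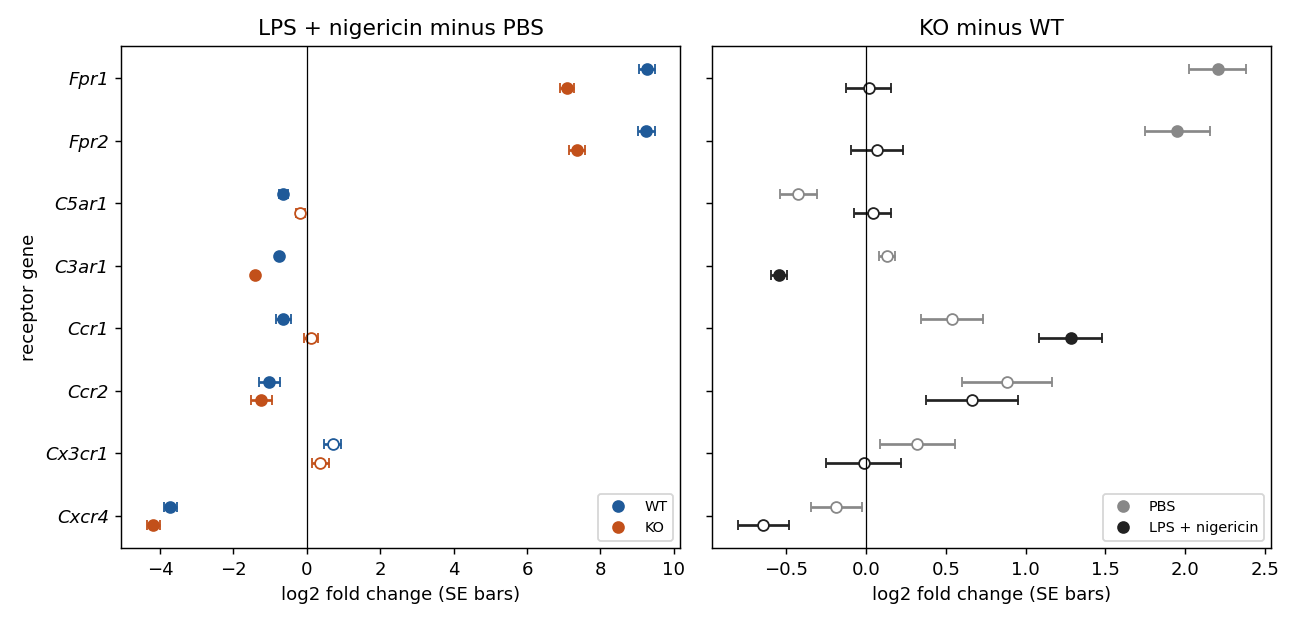
Log2 fold change of 8 receptors with stimulation (left) and between genotypes (right). Points are fitted values, bars are standard errors, and open circles did not pass an adjusted p of 0.05. The formyl peptide receptors stand at 7.09 to 9.27 with stimulation and are apart between genotypes with PBS, while Ccr1 and C3ar1 are the members called between genotypes after stimulation.

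Per kilobase of exon (RPKM, mean of both libraries), C3ar1 at 314 and Cxcr4 at 313 led the class in WT cells with PBS and overlapped between libraries. C5ar1 followed at 12.97, Ccr1 at 3.03 and Cx3cr1 at 1.55. Fpr2 at 0.748 and Fpr1 at 0.736 overlapped each other, and Ccr2 was at 0.372. In stimulated WT cells Fpr2 at 457 and Fpr1 at 455 came first and overlapped, ahead of C3ar1 at 187, Cxcr4 at 23.7 and C5ar1 at 8.31. In KO cells the order changed with PBS in that Fpr1 at 3.39 and Fpr2 at 2.90 stood above Cx3cr1 at 1.94, and after stimulation in that Ccr1 at 4.74 stood above Cx3cr1 at 2.50.

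**Figure D3:**
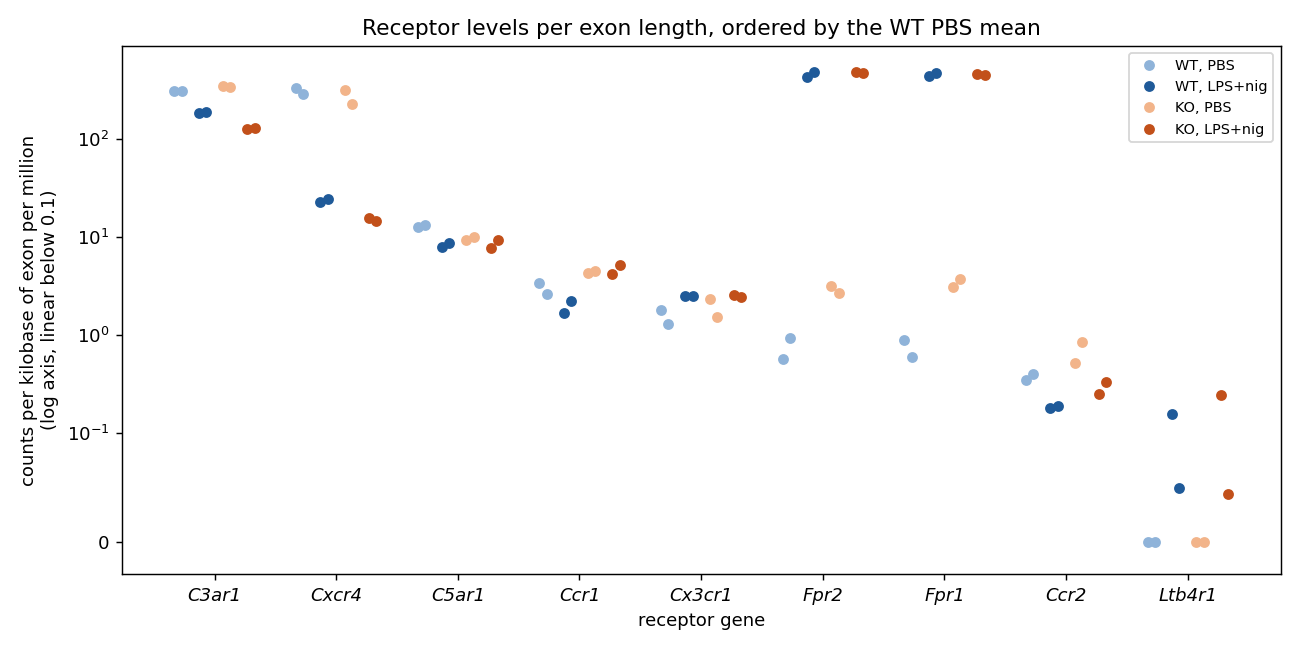
RPKM of each receptor in each library, coloured by group, on an axis that is linear below 0.1 and logarithmic above. Fpr1 and Fpr2 are below 1 RPKM in WT cells with PBS, at 2.67 to 3.70 in KO cells with PBS and above the other receptors after stimulation.

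The genes whose centred log2 levels were most like each member over the 8 libraries were measured by the root mean square difference. Fpr1 and Fpr2 were each other's nearest, at 0.333, followed by Saa3, a serum amyloid A gene, at 0.442 and 0.370. The nearest to C3ar1 were BC005537 at 0.0644, Neurl2 at 0.0797 and Vat1 at 0.0823. Csf1, the macrophage growth factor, was nearest to Ccr1 at 0.165, and Cd300a to Cxcr4 at 0.208. A gene with small changes has small differences from many genes, so these distances are not comparable between members.

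**Figure D4:**
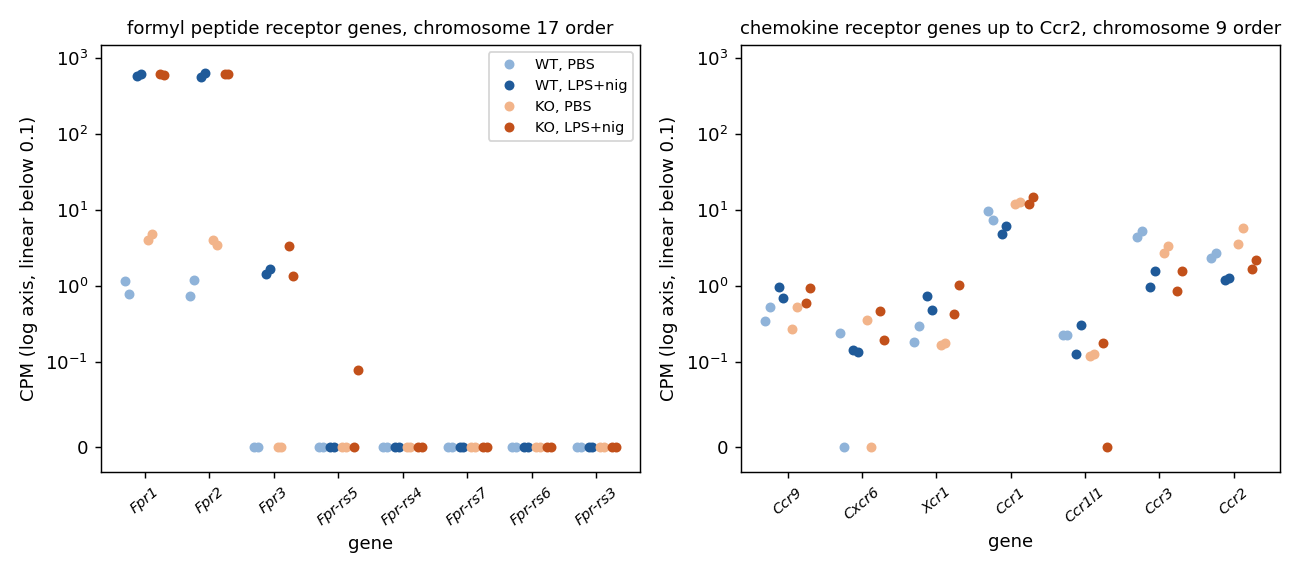
CPM of formyl peptide receptor genes on chromosome 17 and of chemokine receptor genes up to Ccr2 on chromosome 9 in each library, by group, on an axis that is linear below 0.1 and logarithmic above. Fpr1 and Fpr2 stand above Fpr3 in every library, and Ccr1 stands above Ccr2 and Ccr3.

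Ligands of the receptors, with the leukotriene synthesis genes Lta4h, Alox5 and Alox5ap, were tested for 20 of 21 listed genes, and 12 rose and 5 fell with stimulation in WT, 11 and 4 in KO cells. Lta4h and Alox5ap, which are not ligands, were among those that fell in both genotypes. Camp and Ccl12 are counted among those that rose in both, but passed the filter only through the stimulated libraries. With PBS, Camp was at 0 to 0.0481 CPM and Ccl12 at 0 to 0.16 CPM. Between 3 and 6 fell in WT when 1 library was left out. The median log2 change was 1.26 in WT and 1.34 in KO cells, against -0.01 and -0.03 over all genes. Of all tested genes, 20.6% were called higher and 20% lower with stimulation in WT, and 20.2% and 19% in KO cells. Between genotypes the shares were 1.2% higher and 0.355% lower in KO cells with PBS, and 2.91% and 2.01% after stimulation. These shares also stand beside the counts of the lists below. Saa3 rose by 8.52 ± 0.09 in WT (adjusted p = 4.54e-08) and Ccl5, a ligand of Ccr1, by 5.62 ± 0.11 (adjusted p = 4.38e-07). Ccl2, a ligand of Ccr2, rose by 5.04 ± 0.14 (adjusted p = 1.23e-06) and C3, the source of C3a, by 4.16 ± 0.07 (adjusted p = 2.47e-07). With PBS, 4 ligands were higher and 0 lower in KO cells: C3 by 1.67 ± 0.07, Saa3 by 0.97 ± 0.07, Ccl2 by 0.81 ± 0.13 and Ccl5 by 0.70 ± 0.09. Leaving out 1 library gave 2 or 3 called higher.

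After stimulation 4 ligands were higher and 1, Anxa1, was lower in KO cells. The lower call was not kept in every fit that left out 1 library. Cxcl12, a ligand of Cxcr4, was at 6.84 and 8.20 CPM in WT and 11.9 and 13.01 CPM in KO cells with PBS. After stimulation it was at 2.24 and 2.34 CPM in WT and 11.001 and 9.82 CPM in KO cells. It was higher in stimulated KO cells by 2.18 ± 0.15 (adjusted p = 0.00133), and Anxa1, the annexin A1 ligand of Fpr2, was lower, at -0.74 ± 0.09 (adjusted p = 0.00946). All 5 listed fibroblast markers were also higher in stimulated KO cells, summing to 292 to 328 CPM against 114 to 116 CPM in WT, and their part in the Cxcl12 values was not tested.

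Of 26 G protein subunits and chemotaxis effectors, 16 rose and 3 fell in WT and 14 rose and 2 fell in KO cells, with medians of 0.42 and 0.34. Over all tested genes, 20.6% rose and 20% fell in WT, and 20.2% and 19% in KO cells. Rac2, the haematopoietic Rac, rose by 2.16 ± 0.09 and the Src-family kinase Fgr by 3.15 ± 0.15 in WT, while the G protein subunit Gng2 fell by 1.72. Between genotypes 2 were higher with PBS, Fgr by 0.90 ± 0.14 (adjusted p = 0.0323) and Plcb2, a phospholipase C, by 0.76 ± 0.12 (adjusted p = 0.0329), and leaving out 1 library gave 0 or 1 called higher. Scaled by library size alone, 12 rose and 5 fell in WT and 13 rose and 4 fell in KO cells, and leaving out 1 library gave 1 or 2 that fell.

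Of 16 receptor kinases, arrestins and RGS proteins, which end receptor or G protein signalling, 3 rose and 7 fell in WT. In KO cells 5 rose and 3 fell. Over all tested genes, 20.6% rose and 20% fell in WT, and 20.2% and 19% in KO cells. Leaving out 1 library gave 3 to 8 that fell in WT and 2 to 6 that rose in KO cells. Rgs2 fell by 3.15 in WT (adjusted p = 1.05e-05) and by 2.93 in KO cells (adjusted p = 1.40e-05), and Rgs10 by 1.09 and 1.35. None passed with PBS between genotypes (3 at an unadjusted p under 0.05). Rgs18 was higher in stimulated KO cells by 0.97 ± 0.13 (adjusted p = 0.0122), a call not kept in every fit that left out 1 library.

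Of the other chemokine receptors, 11 of 15 were tested, and 1 rose and 2 fell in WT and 3 rose and 2 fell in KO cells, where leaving out 1 library gave 1 to 3 that rose and 1 or 2 that fell. For this and the next lists, 20.6% of all tested genes rose and 20% fell in WT, and 20.2% and 19% in KO cells. Cxcr3 fell by 2.68 in WT and 2.96 in KO cells (adjusted p = 0.000345 and 0.000204). Ccr7, which guides cells to lymph nodes, was at 0, 0, 0 and 0.0641 CPM in the PBS libraries, at 0.346 and 0.430 CPM in stimulated WT and at 1.86 and 2.27 CPM in stimulated KO cells. It is counted among those that rose, but passed the filter only through the stimulated libraries. Among 3 tested atypical receptors Ccrl2 rose, by 2.53 ± 0.18 in WT and 2.70 ± 0.18 in KO cells. Of 15 tested lipid and other chemoattractant receptors, 7 rose and 2 fell in WT and 5 rose and 4 fell in KO cells. In WT, Gpr84 was at 6.93 ± 0.38 and Gpr183, the oxysterol receptor, at -3.59 ± 0.18. Ffar2 is counted among those that rose in WT, but passed the filter only through the stimulated libraries. It was at 0 CPM in both WT libraries with PBS and at 0.145 and 0.138 CPM after stimulation. After stimulation 2 were higher and 1 lower in KO cells. Gpr183 was higher by 1.07 ± 0.17 (adjusted p = 0.0215) and S1pr3, a sphingosine 1-phosphate receptor, by 2.16 ± 0.44 (adjusted p = 0.044), and Ptafr, the platelet-activating factor receptor, was lower, at -0.51 ± 0.11 (adjusted p = 0.0473). Without 1 library there were 0 to 2 of these receptors higher and 0 or 1 lower in that contrast, and 2 to 5 that fell with stimulation in KO cells. Scaled by library size alone, 6 rose and 4 fell in WT.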

How the data were processed

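Per the labels' protocols, Trizol was used for the RNA and a commercial kit for the libraries, with strand not stated. The authors deposited raw counts of genes in 1 table. The submitters' processing notes name Bowtie2, Trimmomatic, edgeR and the build mm10. How reads were counted, and on which annotation, is not given in the sources used here. Symbols came from GENCODE M21 for 55141 of 55401 genes.

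Genes were kept by filterByExpr (minimum count 10, minimum total 15), which left 17470 genes with 99.98% of the counts. All 8 libraries were fitted with 1 coefficient per group by edgeR 4.0.16 (R 4.3.3) with TMM scaling (factors 0.888 to 1.07), and quasi-likelihood tests of 5 contrasts were adjusted by Benjamini-Hochberg within each at 0.05. Standard errors were obtained by dividing the log2 fold change without shrinkage by the root of F. The common biological coefficient of variation was 0.2151. The script was tested on simulated data. Alternatives used DESeq2 1.42.0 and limma 3.58.1. Chi-square per degree of freedom between libraries of a group was 39.33 to 81.09, so no library repeats another.

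The members and gene lists were chosen with earlier results of these data known. Named list genes were at most 4 per contrast with the smallest adjusted p, and some items are not reported here. Likeness used log2(CPM + 0.1) and genes with at least 10 CPM in the highest group. Intervals and floors cover the spread between libraries and counting error only. Figures were drawn with matplotlib 3.10.9.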

Additional observations from a re-analysis of the deposited data

Results flagged for a closer look

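The response to stimulation was called different between genotypes for 3 of the 9 receptors and 4 of 20 tested genes of the ligand list. The difference itself was tested (edgeR, adjusted p at 0.05). Of all tested genes, 0.103% were called with a larger and 0.395% with a smaller response in KO cells. Leaving out 1 library gave -2.50 to -1.91 for Fpr1, -2.26 to -1.58 for Fpr2 and -0.70 to -0.64 for C3ar1. These receptor calls were not kept in every such fit. As KO minus WT on the log2 scale, the difference was -2.18 for Fpr1, -1.88 for Fpr2, -0.68 for C3ar1, -0.87 for C3, -0.95 for Ccl5, -0.98 for Saa3 and 1.45 for Cxcl12. Fpr1, Fpr2, C3, Ccl5 and Saa3 were called higher in KO cells with PBS, where C3ar1 was not. Leaving out 1 library gave 0 to 2 ligands with a smaller response and 0 with a larger one, and the replicate block gave 2 and 0.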

How the results depend on the processing

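Of 681 values of the members under 17 alternatives, 615 kept their direction and their side of the threshold, 38 were no longer called, 13 became called and 15 changed sign. Counts of called members were within 1.5 times of those reported in 74 of 84 cases. With only the PBS groups fitted, 0 members were called between genotypes. Leaving out 1 library gave 0 to 3 called members after stimulation and 0 to 2 for the difference of responses. Sign changes concerned values that were not called. The Cx3cr1 difference after stimulation was 0.12 with library size alone, 0.0058 with a filter of 5 CPM, 0.0054 with only the stimulated groups, and -0.0521 to 0.0185 without 1 library. Leaving out 1 library also gave -0.0575 to 0.245 for Ccr1 with stimulation in KO cells, -0.0118 to 0.595 for Cx3cr1 and -0.445 to 0.0373 for Cxcr4 with PBS between genotypes, and -0.53 to 0.17 for the difference of Ccr2 responses. After stimulation it gave -0.0338 to 0.0767 for Fpr1, -0.0148 to 0.164 for Fpr2, -0.0906 to 0.163 for C5ar1 and -1.21 to 1.52 for Ltb4r1. The cause was not tested. Where a left-out library leaves 1 in a group, that library is assumed to vary like the other groups. Same-numbered libraries deviated together with r of 0.271 between the WT and KO groups with PBS, over 9243 genes. Between the other groups r was -0.033 to 0.088. The numbers were not taken as pairs in the main fit, and what same-numbered PBS libraries share was not tested. A fit with a replicate block kept 38 of 41 values on the same side and called 7, 5, 2, 2 and 2 members in the 5 contrasts, against 7, 5, 2, 2 and 3. Scaling by library size alone moved the median log2 change of all genes to -0.197 in WT, -0.112 in KO cells, 0.127 after stimulation and 0.103 for the difference of responses.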

Other observations

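Small counts in the deposited table were uneven. Over all genes and libraries, a count of 3 occurred 2748 times, 4 occurred 8927 times, 5 occurred 1441 times, 7 occurred 1808 times, 8 occurred 4207 times, 9 occurred 1041 times, 11 occurred 1550 times and 12 occurred 2087 times. The Ltb4r1 counts of 12 and 4 were among these small values. What 1 count stands for is not known, so the floor of 3 counts given for Ltb4r1 may be too low. Dividing all counts by 4, an alternative chosen after seeing the data, kept 39 of 40 member values on the same side of the threshold, and Cx3cr1 with stimulation in WT became called (adjusted p = 0.0426).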
